A study of Mus musculus with 18 samples.

Results

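The comparison set 3 mRNA-seq samples of cells harvested 135 min after tunicamycin was added against 3 control samples with no stress (time 0). The samples were chosen by their labels and are 6 of the 18 samples analysed in the series, which also holds tunicamycin at 45 and 405 min and heat shock (HS) at 45 and 135 min. Both groups were NIH3T3, an established line of mouse fibroblasts, that stably expressed a destabilizing domain fused to GFP (DD-GFP) and had been sorted by flow cytometry for high GFP. The ligand Shield-1 (S1), which keeps this domain folded, was present in both groups, so neither was set up to contain unfolded DD. Tunicamycin served the study as its control for stress in the endoplasmic reticulum (ER). No control harvested at 135 min is among the 18 samples, and the sources used here name no solvent-treated control. Changes from the drug, its solvent, handling and time in culture thus cannot be told apart, here or where values are given as after tunicamycin. The sources do not say whether samples numbered 1 to 3 came from separate cultures, so the p-values measure the spread between these samples, which may be technical. In bulk RNA, fewer responding cells and less RNA per cell cannot be told apart.

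Tunicamycin blocks the first step of N-linked glycosylation, the reaction carried out by Dpagt1, and unglycosylated secretory proteins misfold in the ER. The unfolded protein response of the ER (erUPR) then acts through ATF6 and the IRE1 and XBP1 pathway, known for raising ER chaperones and degradation factors, and through PERK, which slows translation and raises ATF4 and its targets, the integrated stress response (ISR). Immediate-early genes, such as those of the Fos, Egr and Nr4a families, encode transcription factors and are known for rising within minutes of growth factor or stress signals without new protein synthesis.

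At 135 min of tunicamycin 16 genes were induced and 1 was repressed among the 12731 genes tested (adjusted p under 0.05 by edgeR's quasi-likelihood test), or 0.126% and 0.00785% of them. The induced genes included 6 immediate-early genes (Egr1, Egr2, Egr3, Nr4a1, Fos and Fosb), 3 targets of the ISR (Atf3, Ppp1r15a and Vegfa), the growth arrest gene Gadd45a and the clock gene Per2. No ER chaperone, no gene of ER-associated degradation and no gene of N-glycosylation passed the test. Fold changes of the induced genes ranged from 2.55 to 7.75. In all 17 called genes the 3 treated samples lay on 1 side of the 3 controls, as they did above the controls for 14.7% and below them for 12.7% of all genes tested, and each of the 3 same-numbered pairs of samples had the direction of the fitted change. The samples' deviations set number 1 apart but barely separated numbers 2 and 3. With the replicate number as a block, each of the 17 kept its direction but none passed (adjusted p = 0.0694 for each, edgeR). Over all genes that blocked fit called 0, although 1653 were higher and 1750 lower at an unadjusted p under 0.05.

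Both libraries numbered 1 stood apart from the others of their group. Log2 CPM (reads on a gene relative to the library's total, scaled by TMM) of control replicate 1 correlated with the other controls at 0.977 and 0.978, against 0.996 between those, and tunicamycin replicate 1 with its group at 0.972 and 0.97, against 0.994. No pair of replicates was alike within sampling noise. With both libraries numbered 1 left out, a choice made after seeing the data, 2608 genes were induced (20.5% of those tested) and 3044 repressed (23.9%), and all 17 calls passed. With control replicate 1 alone left out 3 genes were induced and 0 repressed, and with tunicamycin replicate 1 alone left out the counts were 49 and 12. Leaving out any 1 of the other 4 libraries left 0 calls. The samples were taken as labelled. Hspa5 and Ddit3, which mark the erUPR, were on average lower in the samples labelled 135 min than in those labelled 45 and 405 min of tunicamycin, and Hspa5 was lower than in the controls too. Whether a label is in error was not tested, and every value given for 135 min rests on these labels. The counts of called genes depend on single libraries, and the values below are given for each sample. Depth was 33415592 to 53424821 reads counted on genes, where 3 reads correspond to 0.0562 to 0.0898 CPM.

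The libraries also differed in how reads were spread over genes of different GC content. The mean log2 CPM of the quintile of genes with the highest transcript GC content minus that of the lowest quintile was 0.97, 0.12 and 0.12 in the controls and 1.64, 0.50 and 0.52 in the treated samples. It was thus higher after tunicamycin in each same-numbered pair, and higher in both libraries numbered 1 than in the rest of their group. The median log2 fold change went from -0.24 in the lowest quintile to 0.22 in the highest, with -0.003 over all genes. All 17 calls passed as well with an offset for GC content in each library, a fit that called 189 induced and 116 repressed genes. With an offset for transcript length instead, 7 of the 17 passed, and with library totals in place of TMM 14 did. The mean log2 CPM of the quintile with the longest transcripts minus that with the shortest was 0.85, 0.65 and 0.61 in the controls. In the treated samples it was 0.69, 1.08 and 1.01.

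**Figure D1:**
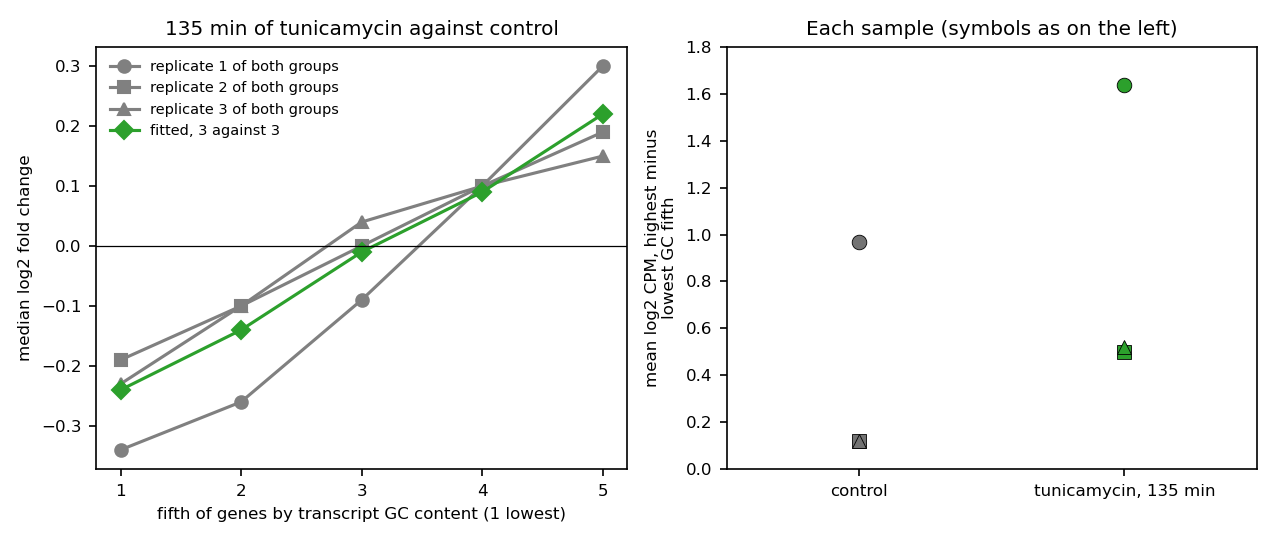
Left, median log2 fold change at 135 min of tunicamycin against control in quintiles of the genes ordered by transcript GC content, for each same-numbered pair of samples (grey) and for the fit of 3 against 3 (green). Right, mean log2 CPM of the highest minus the lowest GC quintile in each sample. Every line rises with GC content, and both samples numbered 1 (circles) lie above the others of their group, at 0.97 and 1.64.

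The label of fibroblasts was checked against marker genes. All 10 fibroblast genes listed for the check (among them Col1a1, Col1a2, Vim and Pdgfrb) were above 1 RPKM (reads per kilobase, relative to the library's total) on average, and their summed level was 9896 to 10588 RPKM in the controls and 9231 to 10418 after tunicamycin. The summed levels of 5 epithelial, 4 endothelial and 4 muscle markers were at most 0.338, 0.114 and 1.67 RPKM in any of the 6 samples. Of 5 leukocyte markers only the lysosomal gene Cd68 was above 1 RPKM, and Ptprc, which defines leukocytes, averaged 0 in the controls and 0.00101 RPKM after tunicamycin.

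The Egr genes, which encode zinc finger transcription factors, and Nr4a1, an orphan nuclear receptor, were induced, and Nr4a1, Egr3 and Egr1 had the smallest p-values of all genes tested. Nr4a1 (chromosome 15 of mm9, 101097277 to 101105223) was at 37.2, 25.8 and 26.5 CPM in the controls and at 189, 145 and 158 CPM after tunicamycin (log2 fold change 2.46, standard error 0.21, adjusted p = 0.0128, edgeR). Egr1 was at 185, 154 and 126 CPM in the controls and at 704, 734 and 672 CPM after tunicamycin (log2 fold change 2.18, standard error 0.20, adjusted p = 0.0128, edgeR). Both were well counted genes whose lowest treated sample was over 3 times the highest control sample. Egr3 (chromosome 14, 70477252 to 70479964) went from 5.06, 7.05 and 5.84 to 41.5, 33.9 and 30.3 CPM (log2 fold change 2.56, standard error 0.23, adjusted p = 0.0128, edgeR). Egr2 (chromosome 10, 67000617 to 67004936) went from 7.49, 4.26 and 4.25 to 27.6, 28.0 and 25.9 CPM (log2 fold change 2.35, standard error 0.27, adjusted p = 0.0417, edgeR).

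Fos and Fosb, which pair with Jun proteins to form AP-1, rose from low levels. Fos (chromosome 12, 86814851 to 86818219) was at 1.35, 1.05 and 1.11 CPM in the controls and at 6.69, 4.5 and 4.29 CPM after tunicamycin (log2 fold change 2.14, standard error 0.28, adjusted p = 0.0457, edgeR). Fosb (chromosome 7, 19888045 to 19895394) was at 2.28, 1.76 and 1.72 CPM against 9.68, 9.06 and 19.8 CPM (log2 fold change 2.74, standard error 0.36, adjusted p = 0.0457, edgeR), with the third treated sample well above the other two. Of the 28 immediate-early genes tested, 6 were induced and 0 repressed, with a median log2 fold change of 0.77. At an unadjusted p under 0.05 there were 19 higher and 0 lower, where 10.1% of all genes were higher and 8.49% lower. The other 13 of these had adjusted p-values above the threshold, such as Myc, a growth regulator (log2 fold change 1.34, adjusted p = 0.0649, edgeR), and Junb, a partner of Fos (1.32, adjusted p = 0.0969, edgeR). Jun and Dusp1 are also known as immediate-early genes, and did not pass, with 0.56 for Jun (adjusted p = 0.193, edgeR) and 0.01 for Dusp1 (adjusted p = 0.981, edgeR). Myc, Junb, Jun and Dusp1 were named after their values were seen.

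**Figure D2:**
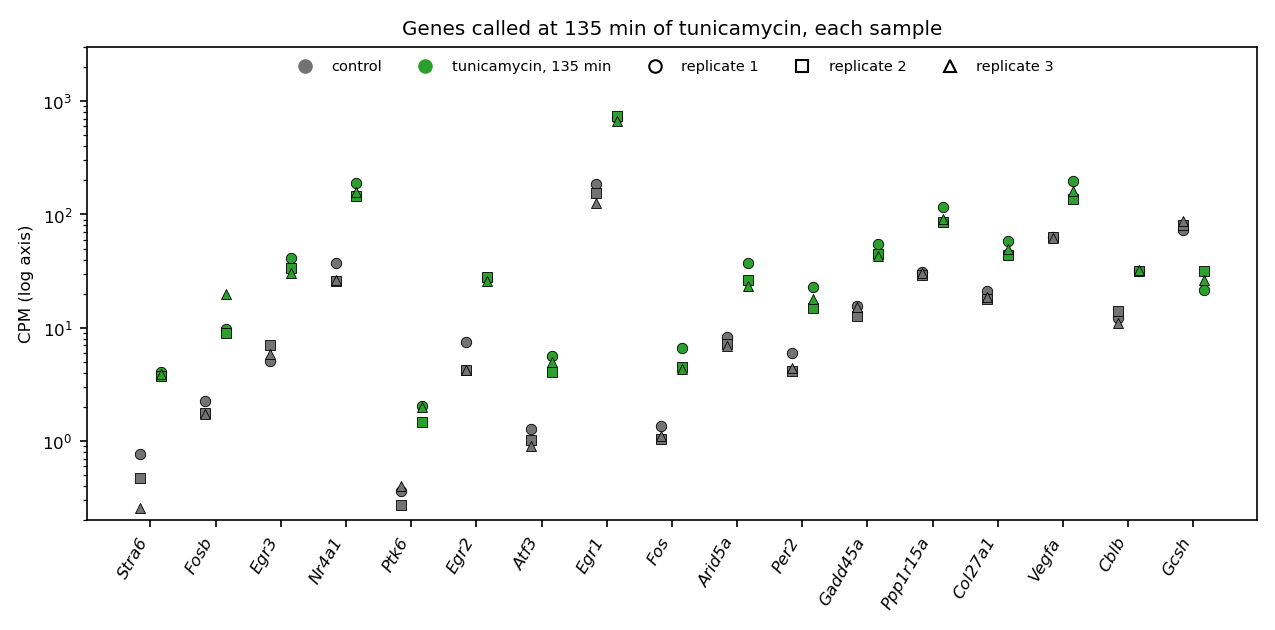
CPM of the 17 called genes in each sample on a log axis, controls in grey and 135 min of tunicamycin in green, with the symbol giving the replicate number. In every gene the 3 treated samples lie on 1 side of the 3 controls, below them only for Gcsh.

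Of the targets of the ISR, 3 passed the test at 135 min and all 3 were induced. Ppp1r15a, listed under its older name Myd116 and encoding the phosphatase subunit that reverses the translation block (chromosome 7, 52778290 to 52781583), was at 30.9, 29.4 and 30.6 CPM in the controls and at 117, 85.9 and 90.7 CPM after tunicamycin (log2 fold change 1.69, standard error 0.18, adjusted p = 0.037, edgeR). Atf3, a transcription factor downstream of ATF4 (chromosome 1, 192994176 to 193007212), went from 1.27, 1.03 and 0.898 to 5.63, 4.05 and 4.95 CPM (log2 fold change 2.19, standard error 0.27, adjusted p = 0.0457, edgeR). Vegfa, an angiogenic growth factor (chromosome 17, 46153943 to 46169326), went from 63.6, 62.8 and 62.4 to 198, 136 and 160 CPM (log2 fold change 1.39, standard error 0.18, adjusted p = 0.0457, edgeR). In each of these the treated libraries lay far outside the narrow range of the controls, with the library numbered 1 uppermost.

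Other genes of this arm had the same sign without passing. Ddit3, encoding the transcription factor CHOP, was at 76.4, 71.4 and 74.6 CPM against 293, 185 and 169 CPM (log2 fold change 1.54, standard error 0.23, adjusted p = 0.0706, edgeR). Chac1, a glutathione-degrading enzyme, was at 52.7, 32.1 and 36.3 CPM against 174, 131 and 105 CPM (1.76, standard error 0.26, adjusted p = 0.0706, edgeR). Trib3, a pseudokinase induced by CHOP, was at 54.8, 42.6 and 50.8 CPM against 129, 92.7 and 86.9 CPM (1.06, standard error 0.21, adjusted p = 0.0946, edgeR), and Atf4 itself was at 489, 503 and 493 CPM against 1139, 729 and 931 CPM (0.91, standard error 0.20, adjusted p = 0.111, edgeR). The treated samples all lay above the controls in each of these 4 genes, as they did for 14.7% of all genes tested. Over the 18 ISR targets tested the median log2 fold change was 1.07. At an unadjusted p under 0.05, 12 were higher and 0 lower, where 10.1% and 8.49% of all genes tested were. With both libraries numbered 1 left out 13 were induced and 1 repressed, at a median of 0.90, where 20.5% and 23.9% of all genes tested were.

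Enzymes of amino acid synthesis, which ATF4 is also known to control, gave no call, and several had negative fold changes. Asns, the asparagine synthetase, was at 176, 299 and 285 CPM in the controls and at 93.2, 179 and 142 CPM after tunicamycin (log2 fold change -0.87, standard error 0.29, adjusted p = 0.188, edgeR), and the groups overlapped. Psat1, of serine synthesis, was at 528, 784 and 889 CPM against 282, 438 and 452 CPM (-0.91, standard error 0.27, adjusted p = 0.155, edgeR). The median over the 13 genes of amino acid and one-carbon synthesis was -0.18, and over the 20 aminoacyl-tRNA synthetases also -0.18, with no call in either list. Without the libraries numbered 1, 1 was induced and 6 were repressed among the former, and 0 and 10 among the latter. Of all genes tested 20.5% were then induced and 23.9% repressed.

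Binding motifs of the stress regulators stand in the promoters of some of these genes, and the stretches that hold them are shown for Atf3, induced here, for Chac1 and Herpud1, which share its motif and had a positive fold change, for the induced gene Ppp1r15a, and for the chaperone gene Hspa5. They were read from RefSeq promoters of GRCm38.p6, 250 bases before to 50 after each listed start, and all lie before the start, 5′ to 3′ on the gene's strand. Capitals mark the letters TTGCATCA (the C/EBP-ATF response element bound by ATF4) in the first 3, TGACGTCA (the cAMP response element) in Ppp1r15a, and CCAAT and CCACG with 9 bases between them (the ER stress response element bound by ATF6) in Hspa5.
Atf3, chr1:191183406-191183473, minus strand: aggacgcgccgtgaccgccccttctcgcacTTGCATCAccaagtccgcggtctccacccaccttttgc
Chac1, chr2:119351019-119351086, plus strand: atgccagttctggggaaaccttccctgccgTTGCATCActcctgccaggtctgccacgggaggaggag
Herpud1, chr8:94386287-94386354, plus strand: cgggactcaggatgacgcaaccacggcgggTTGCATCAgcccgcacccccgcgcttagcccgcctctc
Ppp1r15a, chr7:45526269-45526310, minus strand: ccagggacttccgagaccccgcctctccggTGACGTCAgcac
Hspa5, chr2:34771995-34772073, plus strand: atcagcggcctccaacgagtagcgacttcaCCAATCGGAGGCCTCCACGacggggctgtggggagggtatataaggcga

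The same letters were searched on both strands of all 32851 listed promoters. The C/EBP-ATF response element was in 0.895% of them, the cAMP response element in 1.79% and the ER stress response element in 0.119%. Promoters were listed for 12 of the 16 induced genes, of which Atf3 alone held the first, Ppp1r15a alone the second and none the third. Among the 13 listed of 14 erUPR genes chosen for the report, Atf3, Chac1 and Herpud1 held the C/EBP-ATF response element, and Hspa5 and Hsp90b1 the ER stress response element. The AP-1 site TGACTCA was in 5.2% of all promoters, in 0 of the 12 induced genes and in Ddit3 and Hspa5 of the erUPR genes. The UPR element core TGACGTGG was in 0.676% of all promoters and in that of Vegfa, and the CArG box bound by SRF was in 1.63% of all and in those of Egr2 and Herpud1. These matches describe the letters only.

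No ER chaperone was called higher or lower at 135 min. Hspa5, encoding BiP, the main Hsp70 of the ER (chromosome 2, 34627610 to 34632049), was at 678, 703 and 760 CPM in the controls and at 501, 445 and 350 CPM after tunicamycin (log2 fold change -0.72, standard error 0.19, adjusted p = 0.135, edgeR). All 3 treated samples were thus below the controls for a gene that marks the erUPR. Sdf2l1, a BiP partner, was at 32.8, 23.4 and 25.0 CPM against 21.7, 14.5 and 12 CPM (-0.75, standard error 0.27, adjusted p = 0.203, edgeR). Dnajb9, a co-chaperone of BiP, was at 0.985, 3.82 and 3.05 CPM against 2.99, 2.46 and 2.93 CPM (0.09, standard error 0.44, adjusted p = 0.94, edgeR), and Hsp90b1, the ER form of Hsp90, at 229, 636 and 719 CPM against 562, 534 and 494 CPM (0.01, standard error 0.37, adjusted p = 0.995, edgeR). In both the first control was far below the other two, and the fold change turned negative when the libraries numbered 1 were left out (-0.38 and -0.41). Over the 15 chaperones tested the median log2 fold change was -0.14. At an unadjusted p under 0.05, 0 were higher and 3 lower, where 10.1% and 8.49% of all genes tested were. Without the libraries numbered 1, 0 were induced and 9 repressed, where 20.5% and 23.9% of all genes tested were.

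The remaining ER genes also gave no call. Herpud1, of ER-associated degradation (chromosome 8, 96910400 to 96919258), was at 51.3, 61.1 and 68.3 CPM against 129, 91.6 and 94.7 CPM (log2 fold change 0.80, standard error 0.20, adjusted p = 0.125, edgeR), and Xbp1, the transcription factor spliced by IRE1, at 41.4, 46.3 and 47.9 CPM against 36.8, 47.1 and 42.9 CPM (-0.10, standard error 0.17, adjusted p = 0.805, edgeR). Counts per gene do not separate spliced from unspliced Xbp1. The medians were -0.05 over 17 genes of ER-associated degradation (3 higher and 1 lower at an unadjusted p under 0.05), -0.11 over 12 disulfide isomerases and oxidases, 0.26 over 13 sensors and transcription factors of the erUPR and -0.20 over 34 genes of ER translocation. Of all genes tested 10.1% were higher and 8.49% lower at an unadjusted p under 0.05. For N-glycosylation, the process that tunicamycin blocks, the median over 35 genes was -0.38. In the same-numbered pairs of samples 1 to 3 it was -0.56, -0.28 and -0.26. Of these genes 7 were lower and 0 higher at an unadjusted p under 0.05. All treated samples were below the controls for 13 of them, as for 12.7% of all genes tested. Dpagt1, the target of the drug, was at 49.6, 43.3 and 42.0 CPM against 17.3, 41.3 and 39.7 CPM (-0.46, standard error 0.31, adjusted p = 0.465, edgeR), a difference carried by the first treated sample. Stt3a, the catalytic subunit of the oligosaccharyltransferase, was at 53.5, 97.7 and 123 CPM against 24.5, 52.1 and 38.5 CPM (-1.25, standard error 0.36, adjusted p = 0.152, edgeR), and Tusc3, another subunit, at 33.1, 36.0 and 45.0 CPM against 19.6, 20.8 and 22.0 CPM (-0.87, standard error 0.19, adjusted p = 0.102, edgeR).

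**Figure D3:**
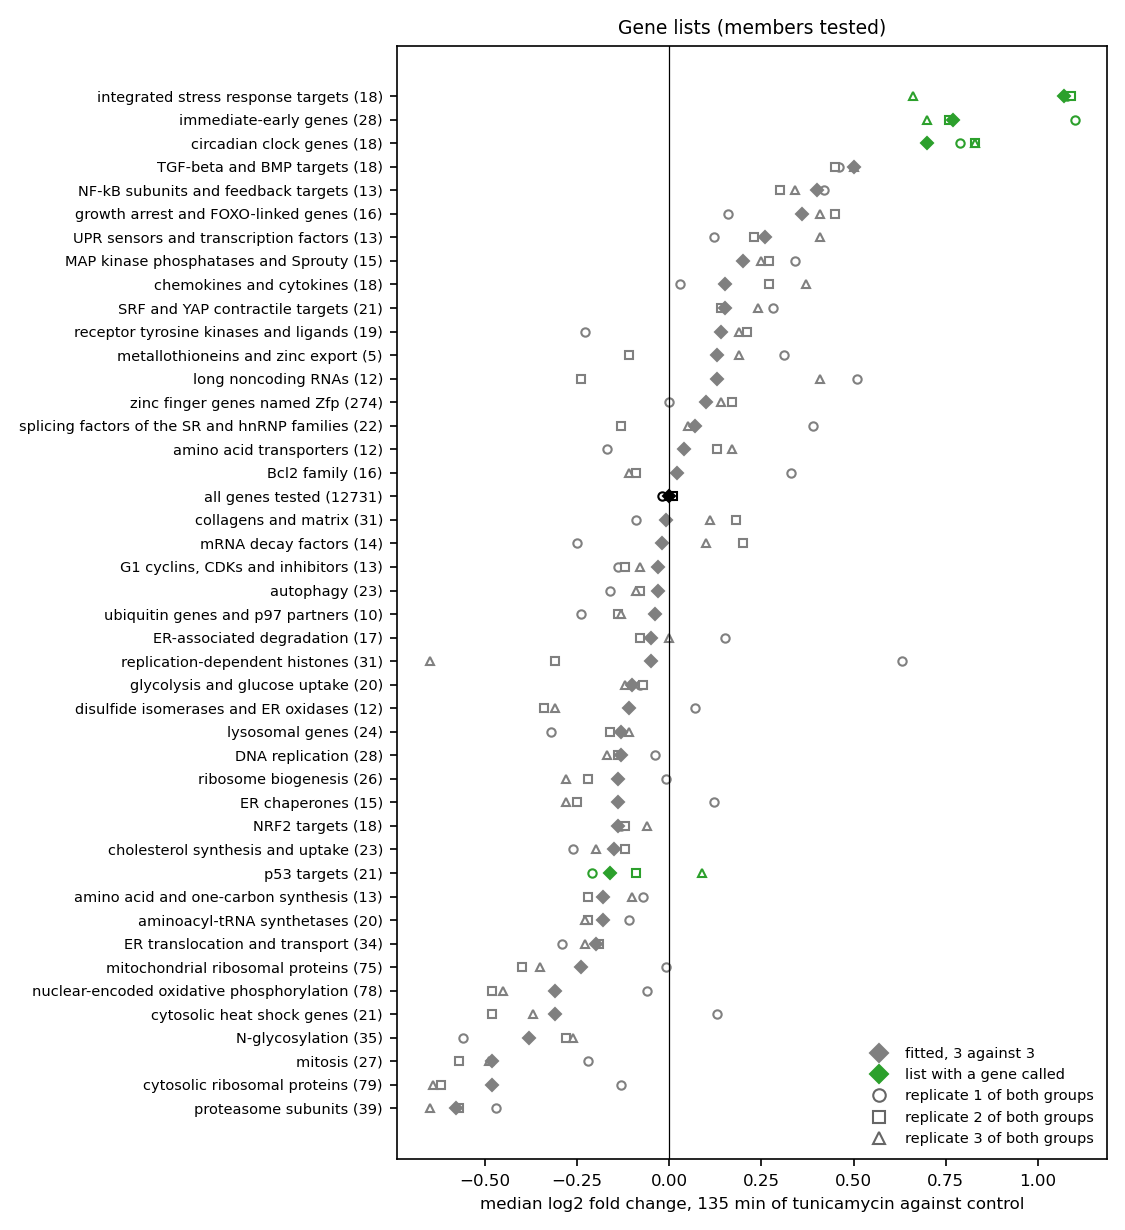
Median log2 fold change at 135 min of tunicamycin against control for 43 gene lists and for all genes tested, with the number of members tested in brackets. Diamonds give the fit of 3 against 3 (green where a member was called), open symbols the median within each same-numbered pair, and ISR targets (1.07), immediate-early genes (0.77) and clock genes (0.70) stand highest, with proteasome subunits (-0.58) lowest.

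Per2 was induced among the clock genes, and others had positive fold changes. Per2, a repressor of the circadian clock (chromosome 1, 93312559 to 93355905), was at 5.96, 4.13 and 4.42 CPM in the controls and at 23.0, 15.1 and 17.9 CPM after tunicamycin (log2 fold change 1.95, standard error 0.26, adjusted p = 0.0457, edgeR). Of 18 clock genes tested, with a median of 0.70, it alone was called. At an unadjusted p under 0.05, 12 clock genes were higher and 1 lower, where 10.1% and 8.49% of all genes tested were. Among those that did not pass, and named after their values were seen, were Dbp, a clock output factor (1.35, adjusted p = 0.0781, edgeR), Per3 (1.51, adjusted p = 0.0802, edgeR) and Bhlhe40, a repressor (1.15, adjusted p = 0.0569, edgeR), while Arntl, the activator, had -0.31 (adjusted p = 0.474, edgeR).

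Gadd45a, a growth arrest gene raised by p53 and by ATF4 (chromosome 6, 66985090 to 66987401), was at 15.6, 12.6 and 15.4 CPM in the controls and at 55.1, 44.4 and 43.1 CPM after tunicamycin (log2 fold change 1.71, standard error 0.19, adjusted p = 0.0414, edgeR). It was the 1 call among 21 p53 targets, whose median was -0.16, with 3 higher and 2 lower at an unadjusted p under 0.05. At that threshold 10.1% of all genes tested were higher and 8.49% lower. Cdkn1a, the p53 target best known for arresting the cell cycle, had a log2 fold change of -0.02 (adjusted p = 0.964, edgeR, named after its value was seen).

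Of the other 5 induced genes, Stra6, the receptor for retinol-binding protein (chromosome 9, 57976895 to 58001803), was at 0.778, 0.477 and 0.26 CPM against 4.08, 3.73 and 3.91 CPM (log2 fold change 2.95, standard error 0.38, adjusted p = 0.0457, edgeR). Ptk6, a tyrosine kinase (chromosome 2, 180929829 to 180937494), was at 0.363, 0.275 and 0.402 CPM against 2.03, 1.47 and 2.01 CPM (2.40, standard error 0.30, adjusted p = 0.0457, edgeR). Both were below 1 CPM in every control, above the level of 3 reads, and did not overlap between the groups. Arid5a, an RNA-binding protein (chromosome 1, 36364599 to 36379820), went from 8.25, 7.21 and 6.95 to 37.0, 26.4 and 23.2 CPM (1.95, standard error 0.24, adjusted p = 0.0457, edgeR). Col27a1, a fibrillar collagen (chromosome 4, 62876446 to 62996024), went from 21.3, 17.8 and 18.6 to 58.6, 44.2 and 49.7 CPM (1.40, standard error 0.19, adjusted p = 0.0457, edgeR), and Cblb, a ubiquitin ligase (chromosome 16, 52031662 to 52208159), from 12.2, 14.1 and 11.1 to 31.5, 31.5 and 32.4 CPM (1.35, standard error 0.18, adjusted p = 0.0457, edgeR). Per length, most of the induced genes were expressed at low levels in the controls, with a median of 1.56 RPKM over the 16 genes against 6.65 RPKM over all genes tested. Their median transcript GC content was 53.9%, against 50.6% over all genes.

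Gcsh, a subunit of the mitochondrial glycine cleavage system (chromosome 8, 119505728 to 119517349), was the gene repressed. It was at 72.2, 80.8 and 87.6 CPM in the controls and at 21.4, 31.6 and 26.2 CPM after tunicamycin (log2 fold change -1.60, standard error 0.20, adjusted p = 0.0457, edgeR). The next 11 genes by p-value with non-overlapping groups and enough reads had log2 fold changes of -0.97 to -1.50 and adjusted p-values of 0.0781 to 0.0802 (edgeR). They were Prps1, of purine synthesis, Cox6b1, of cytochrome c oxidase, Cks2, a partner of cyclin-dependent kinases, Odc1, of polyamine synthesis, the caveolin Cav2, the mitochondrial Chchd2 and Dnajc15, Arl6ip1 of the ER membrane, the lysosomal Laptm4a, the lectin Cd302 and 0610009B22Rik. Cox6b1, for example, was at 280, 228 and 238 CPM against 112, 132 and 104 CPM, and Odc1 at 296, 312 and 329 CPM against 143, 152 and 183 CPM.

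Lists of abundant housekeeping machinery had negative medians without a called gene. The median log2 fold change was -0.58 over 39 proteasome subunits, where 16 were lower and 0 higher at an unadjusted p under 0.05. All treated samples were below the controls for 20 subunits and above them for 1, where 12.7% and 14.7% of all genes tested were. The median was -0.48 over 79 cytosolic ribosomal proteins (26 lower and 0 higher), whose counts are uncertain because of their pseudogenes. It was -0.31 over 78 nuclear-encoded genes of oxidative phosphorylation (24 lower and 2 higher) and -0.24 over 75 mitochondrial ribosomal proteins (9 lower and 0 higher). At an unadjusted p under 0.05, 8.49% of all genes tested were lower and 10.1% higher. Ribosomal proteins, oxidative phosphorylation and mitochondrial ribosomal proteins had medians of -0.13, -0.06 and -0.01 in the pair of samples numbered 1, against -0.35 to -0.64 in the other pairs. For the proteasome the 3 pairs gave -0.47, -0.57 and -0.65. With the offset for GC content the median of the proteasome was -0.47 and that of the ribosomal proteins -0.47. The quintile of genes with the shortest transcripts had medians of 0.05, -0.22 and -0.23 in the pairs numbered 1 to 3. That with the longest had -0.11, 0.22 and 0.20. Whether transcript length bears on the medians of these lists was not tested. Psmb4, a subunit of the core particle, was at 140, 179 and 185 CPM against 71.2, 101 and 104 CPM (-0.86, standard error 0.21, adjusted p = 0.122, edgeR), and Rpl9 at 630, 884 and 826 CPM against 404, 410 and 327 CPM (-1.04, standard error 0.20, adjusted p = 0.0945, edgeR). With both libraries numbered 1 left out, 34 of the 39 proteasome subunits and 65 of the 79 ribosomal proteins were repressed and 1 of each was induced. Of all genes tested 23.9% were then repressed and 20.5% induced.

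Mitotic genes also had a negative median, -0.48 over 27 genes, with -0.22, -0.57 and -0.49 in the pairs of samples numbered 1 to 3. At an unadjusted p under 0.05, 8 were lower and 0 higher, where 8.49% and 10.1% of all genes tested were. Ccnb1, the mitotic cyclin B1, was at 130, 146 and 158 CPM against 23.0, 61.9 and 53.4 CPM (log2 fold change -1.65, standard error 0.34, adjusted p = 0.095, edgeR), and Ccnb2 at 28.3, 32.2 and 30.1 CPM against 13.4, 17.5 and 19.2 CPM (-0.85, standard error 0.20, adjusted p = 0.118, edgeR). Genes of DNA replication had a median of -0.13 over 28. Cytosolic heat shock genes had -0.31 over 21, with 0.13 in the pair numbered 1 and -0.48 and -0.37 in the others. Hsp90aa1, the stress-inducible cytosolic Hsp90, was at 638, 1014 and 1043 CPM against 255, 627 and 432 CPM (-1.04, standard error 0.34, adjusted p = 0.184, edgeR).

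Lists of signalling feedback and growth factor targets had positive medians without a call. The median was 0.50 over 18 TGF-beta and BMP targets, 0.40 over 13 NF-kB genes and 0.36 over 16 growth arrest and FOXO-linked genes. It was 0.15 over 18 chemokines and cytokines and 0.20 over 15 MAP kinase phosphatases and Sprouty genes. Of the last 15, 7 were higher and 0 lower at an unadjusted p under 0.05, where 10.1% and 8.49% of all genes tested were. Dusp5, a phosphatase of ERK, was at 48.2, 44.7 and 38.2 CPM against 112, 87.6 and 82.7 CPM (log2 fold change 1.11, standard error 0.19, adjusted p = 0.0802, edgeR). Tsc22d3, a glucocorticoid and FOXO target, was at 16.9, 17.1 and 18.5 CPM against 53.6, 36.4 and 37.3 CPM (1.28, standard error 0.21, adjusted p = 0.0802, edgeR), and Lif, a cytokine, at 4.12, 3.58 and 3.76 CPM against 10.3, 10.6 and 9.81 CPM (1.42, standard error 0.20, adjusted p = 0.0605, edgeR). Each of these 3 genes had its lowest treated sample above its highest control, as did 14.7% of all genes tested. The other 19 lists, which gave no call, had medians between -0.15 and 0.15.

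The genes named above were also compared directly between the tunicamycin samples at 135 min and the samples of 3 other groups. The 16 induced genes were chosen for high values in the same treated samples, so their positive differences are partly given by that choice. Of the 14 erUPR genes, Atf3 and Ppp1r15a are also among the 16, and all 14 were chosen with earlier results of these data known. Against 45 min of tunicamycin, 5 of the 29 genes of both sets together with Gcsh were higher at 135 min and 4 were lower (edgeR), where 0.118% and 0.173% of all genes were. Egr1 was higher by a log2 fold change of 2.55 (adjusted p = 0.0062, edgeR), at 674 ± 30.5 CPM against 115 ± 18.3 CPM (SD, n = 3 each, scaled over all 18 samples). Egr2, Egr3, Nr4a1 and Fos were higher too, by 2.12, 2.04, 1.34 and 2.34. The lower genes were Atf3 (-2.66, adjusted p = 0.0062, edgeR), at 4.68 ± 0.846 CPM at 135 min against 29.6 ± 3.31 CPM at 45 min, Gadd45a (-2.00), Herpud1 (-1.45) and Ppp1r15a (-1.25).

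Ddit3 was at 542 ± 138 CPM at 45 min, 208 ± 69.2 CPM at 135 min and 2629 ± 402 CPM at 405 min of tunicamycin, against 71.9 ± 2.29 CPM in the controls (SD, n = 3 each). Hspa5 was at 935 ± 17.2, 415 ± 79.1 and 9010 ± 252 CPM at the same times, against 692 ± 40.4 CPM in the controls. For both genes the mean of the samples labelled 135 min was thus below those at the earlier and the later time (the labels themselves were not tested), although the difference from 45 min did not pass (adjusted p = 0.109 and 0.0522, edgeR). Against 405 min, 9 of the 29 genes were higher at 135 min and 18 lower, where 22.4% and 21.4% of all genes were, and all 14 erUPR genes were among the lower ones, from Atf4 (-0.67) to Sdf2l1 (-5.80). Egr1, Egr2, Egr3, Nr4a1 and Fos were higher at 135 min than at 405 min as well, by 3.35 (Fos) to 4.55 (Egr2).

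Against 135 min of HS, 4 of the 29 genes were higher after tunicamycin and 4 lower, where 0.817% and 1.3% of all genes were. Egr1, Egr2, Egr3 and Nr4a1 were higher, by 3.22, 2.98, 3.16 and 2.81. Atf3, Hspa5, Herpud1 and Sdf2l1 were lower, with log2 fold changes of -3.42, -1.67, -1.84 and -2.30 (adjusted p from 0.0182 to 0.0224, edgeR). Compared with the same controls, 10 of the 16 genes were also induced at 45 min of tunicamycin (4.01% of all genes were), 8 at 405 min (23.3%) and 10 at 135 min of HS (4.75%). These comparisons share the 3 control samples. Stra6, Atf3, Arid5a, Gadd45a, Ppp1r15a, Vegfa and Cblb were induced in each of them. Cblb, for example, was at 12.1 ± 1.47 CPM in the controls, 28.3 ± 1.44, 30.4 ± 0.616 and 25.8 ± 2.26 CPM at the 3 times of tunicamycin, and 30.5 ± 5.09 CPM at 135 min of HS.

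**Figure D4:**
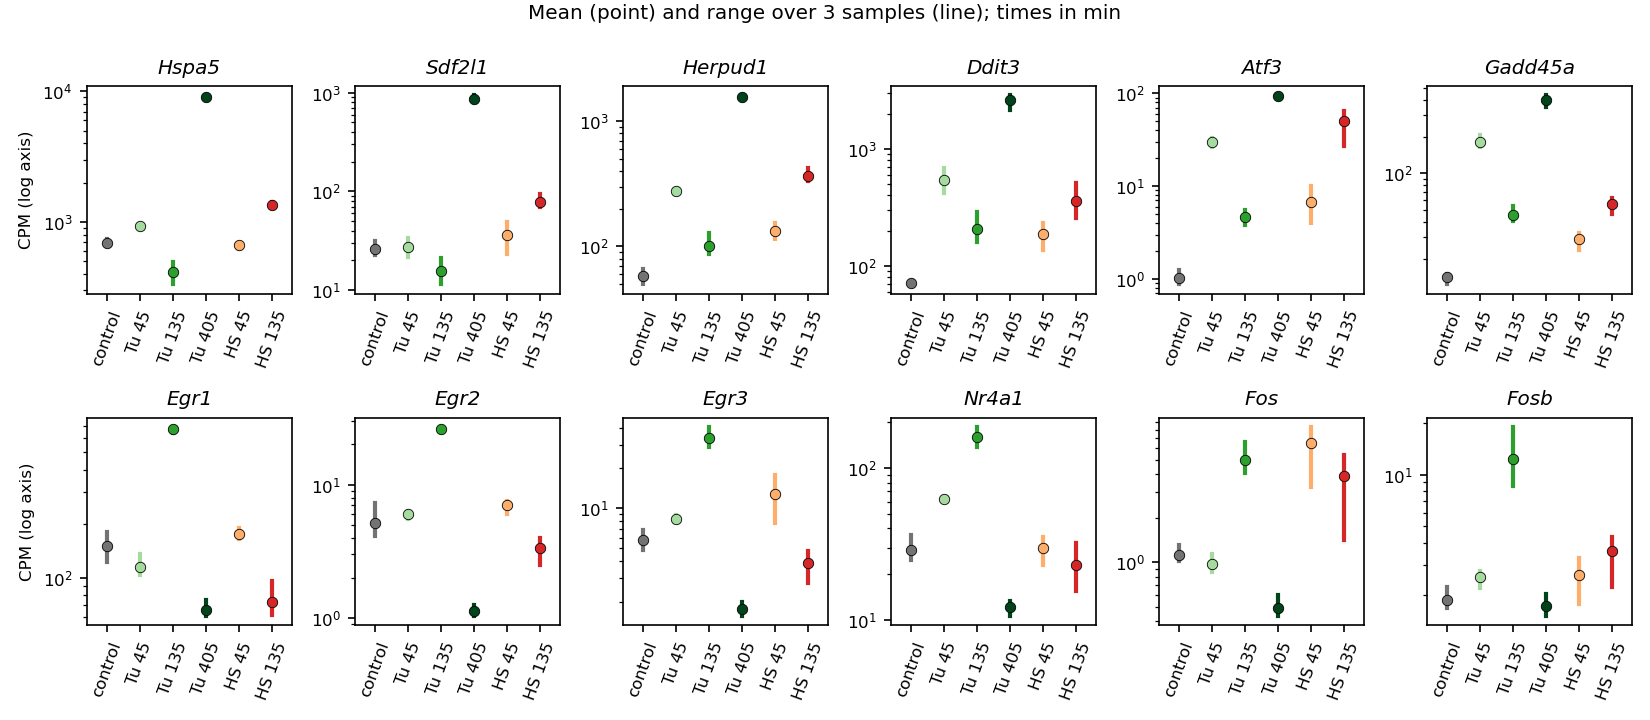
CPM on a log axis, scaled over all 18 samples, of 6 erUPR and growth arrest genes (top) and 6 immediate-early genes (bottom) in the controls, at 45, 135 and 405 min of tunicamycin (Tu) and at 45 and 135 min of heat shock (HS), with the mean as a point and the range over 3 samples as a line. In the top row 135 min lies below 45 and 405 min of tunicamycin for every gene, and in the bottom row it lies above both.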

How the data were processed

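Poly(A) RNA was selected by the authors and sequenced on an Illumina HiSeq instrument, and DNAnexus served for alignment to mm9 and for counts on RefSeq genes (aligner not given in the sources used here). 2 ways of preparing libraries are described, and which library was made by which is not given in the sources used here. The authors deposited for each library an estimated count per gene, an RPKM value, a score (the RPKM less its mean over genes, divided by the SD) and a signal (the RPKM divided by its root mean square). Only estimated counts were tested, rounded to whole numbers. Of values above 0 and too low to be rounded by the 4 significant digits of the tables, 18.9% to 21.8% were not whole in the 6 libraries. Values were joined by gene name over 20207 genes. Levels per length are the deposited RPKM.

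Groups come from the labels. The 3 samples of each group were fitted with edgeR 4.0.16 (R 4.3.3), TMM and the quasi-likelihood test, keeping 12731 genes (1 read or more in each of the 18 samples), with Benjamini-Hochberg adjustment. Standard errors come from the F statistic. The samples, the 43 gene lists and the 14 erUPR genes (Hspa5, Hsp90b1, Dnajb9, Herpud1, Sdf2l1, Xbp1, Atf4, Ddit3, Trib3, Chac1, Asns, Ppp1r15a, Atf3, Dpagt1) were chosen with earlier results of these data known. Also named were the 12 largest rises and falls among called genes with non-overlapping groups and at least 50 reads in the higher group, filled up by smallest p, and in each list up to 4 called members or else the 2 of smallest p. Deviations from group means correlated at 0.197 to 0.289 between same-numbered samples and at -0.262 to 0.191 between others. They set the samples numbered 1 apart, but numbers 2 and 3 were barely told apart. Control 3 correlated at 0.191 with treated sample 2 and at 0.197 with treated sample 3. In the direct comparisons the numbers did not pair the samples, as same-numbered correlations ran from -0.763 to 0.29. For GC content and length, the longest coding transcript of GENCODE on this build was taken (found for 97.6% of genes tested). In simulated counts with 12731 genes the test recovered 96 of 100 genes changed 4-fold and 23 of 100 changed 2-fold, with 8 false calls. Those counts were drawn independently for each sample, and only well counted genes were changed. They lack the GC, length and replicate 1 differences between these libraries, so the rates need not hold for this comparison. Alternatives were other filters, DESeq2 1.42.0, the exact test, other scalings, 1 fit of all 6 groups, the replicate block, GC and length offsets and leaving out libraries. Depth limits precision through counting error, which the level of 3 reads alone covers.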

Additional observations from a re-analysis of the deposited data

Results flagged for a closer look

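Among the erUPR and called genes, 9 differed between the samples at 135 and 45 min of tunicamycin when these groups were tested directly (edgeR, adjusted p under 0.05). Over all genes tested 0.118% were higher and 0.173% lower at 135 min. The log2 fold changes, 135 min against 45 min, were 2.55 for Egr1, 2.34 for Fos, 2.12 for Egr2, 2.04 for Egr3 and 1.34 for Nr4a1, all higher at 135 min. They were -2.66 for Atf3, -2.00 for Gadd45a, -1.45 for Herpud1 and -1.25 for Myd116 (Ppp1r15a), all lower at 135 min.

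The same direct test against 405 min of tunicamycin passed for 27 of the erUPR and called genes. Of all genes tested 22.4% were higher at 135 min and 21.4% lower. Higher at 135 min were Egr2 (4.55), Egr3 (4.28), Nr4a1 (3.71), Egr1 (3.37), Fos (3.35), Fosb (2.85), Per2 (2.05), Col27a1 (1.52) and Ptk6 (1.43). Lower at 135 min were the erUPR genes Sdf2l1 (-5.80), Hspa5 (-4.42), Dnajb9 (-4.38), Atf3 (-4.29), Herpud1 (-3.92), Ddit3 (-3.64), Myd116 (-3.04), Hsp90b1 (-2.86), Xbp1 (-2.25), Trib3 (-2.02), Chac1 (-1.56), Dpagt1 (-1.44), Asns (-1.29) and Atf4 (-0.67). Gadd45a (-3.10), Arid5a (-1.07), Gcsh (-0.90) and Vegfa (-0.70) were lower as well.

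Against 135 min of HS the direct test passed for 8 of the erUPR and called genes. Of all genes tested 0.817% were higher after tunicamycin and 1.3% lower. Higher after tunicamycin were Egr1 (3.22), Egr3 (3.16), Egr2 (2.98) and Nr4a1 (2.81), and lower were Atf3 (-3.42), Sdf2l1 (-2.30), Herpud1 (-1.84) and Hspa5 (-1.67).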

How the results depend on the processing

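Against the control, 16 genes were induced and 1 repressed. The counts were 305 and 242 with edgeR's exact test, 329 and 336 with DESeq2, 233 and 178 with all 6 groups in 1 fit, 189 and 116 with the GC offset, 8 and 0 with a length offset and 14 and 0 with library totals. They were 0 and 0 with the replicate block and 0 and 0 with that block and the GC offset. Of choices made after seeing the data, a term for number 1 against numbers 2 and 3 gave 1021 and 1026, and leaving out both libraries numbered 1 gave 2608 and 3044. The cause of these differences was not tested. Leaving out 1 library gave 0 to 49 induced and 0 to 12 repressed genes. Each of the 17 called genes kept its direction in all of these.

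In the direct comparisons the numbers do not pair the samples. With the replicate block 0 genes were higher and 0 lower against 45 min, 9 and 17 against 405 min, and 0 and 0 against 135 min of HS. With all 6 groups in 1 fit 7 were lower than at 45 min and 8 lower than after HS. Leaving out 1 library gave 0 to 7 higher and 0 to 12 lower genes against 45 min, 9 to 9 and 17 to 18 against 405 min, and 0 to 4 and 0 to 6 against HS.

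Hsp90b1 against the control turned to -0.01 with library totals and with all 6 groups in 1 fit, to -0.35 without control replicate 1, to -0.04 without tunicamycin replicate 1 and to -0.41 without both. Dnajb9 turned to -0.30 without control replicate 1 and to -0.38 without both. Against 45 min, Atf4 turned to -0.01 without tunicamycin replicate 1 at 135 min, and Dpagt1 to -0.16, -0.08 and -0.05 without replicate 3 at 45 min, replicate 2 at 135 min and replicate 3 at 135 min. Leaving out 1 library gave -0.35 to 0.29 for Hsp90b1, -0.30 to 0.47 for Dnajb9, -0.01 to 0.31 for Atf4 and -0.16 to 0.42 for Dpagt1. None of these 4 genes had passed in those comparisons.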
